A study of Mus musculus with 6 samples.

Results

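The variable (V) segments of the mouse immunoglobulin kappa light chain were followed in spleen cells of mice on 2 diets. All genes whose symbol starts with Igkv were taken, which gave 160 of the 32285 genes measured. The 160 genes matched the GENCODE vM21 annotation by identifier and lay on chromosome 6 (mm10) between positions 67555497 and 70704177, on the side of the joining segment Igkj1 (start 70722562) away from the constant gene Igkc. Of these, 100 were annotated as functional V genes and 60 as V pseudogenes, in 20 numbered families. The mice were wild-type C57BL/6 animals, 6 weeks old at the start, and were fed a normal diet (ND) or the diet labelled MCDHFD (MCD in the sample titles) for 7 weeks. The study used that diet as a model of fatty liver disease. Splenocytes were profiled by droplet single-cell RNA sequencing in 3 libraries per diet. Whether a library stands for 1 animal is not given in the labels, so p-values below measure the spread between libraries. Both groups were wild type, and no gene was targeted.

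In the kappa locus, each developing B cell joins 1 V segment to 1 J segment and splices the product to the single constant gene Igkc. V segments that lie in the same orientation as the J segments join by deleting the DNA between them, and V segments in the opposite orientation join by inverting it. Allelic exclusion leaves most B cells with a single productive kappa chain, and cells without one can turn to the lambda locus. Cells of 1 clone thus share a V segment, which forms part of the site that binds antigen, but unrelated cells can share it too. In mice, B-1 cells that bind phosphatidylcholine are known for joining the heavy segment Ighv11-2 with Igkv14-126, or Ighv12-3 with Igkv4-91. Plasma cells secrete the same chains at a far higher level.

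The 3' ends of 7 segments are printed because the results turn on them. Each line gives the last 60 bases of the annotated transcript (GENCODE vM21, mm10), 5′ to 3′ on the coding strand, and the capitals mark the codon of the conserved cysteine that opens the third complementarity-determining region. Igkv1-117 (chr6:68121046-68121827, plus strand) and Igkv1-110 (chr6:68270485-68271267, plus) were 97.5% identical over 401 aligned bases. Igkv10-96 (chr6:68631963-68632442, minus) led the B cells of 1 library and the plasma cells of that library. Igkv6-15 (chr6:70406469-70406992, minus) and Igkv5-39 (chr6:69900424-69900977, minus) were dominant in the most plasma cells. Igkv14-126 (chr6:67896172-67896642, plus) and Igkv4-91 (chr6:68768555-68769103, minus) are the light chain partners named above.
Igkv1-117: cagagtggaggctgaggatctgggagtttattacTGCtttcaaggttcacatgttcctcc
Igkv1-110: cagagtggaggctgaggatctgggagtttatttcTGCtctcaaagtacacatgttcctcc
Igkv10-96: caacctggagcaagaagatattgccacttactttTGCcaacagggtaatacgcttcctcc
Igkv6-15: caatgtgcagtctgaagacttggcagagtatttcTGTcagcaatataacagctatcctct
Igkv5-39: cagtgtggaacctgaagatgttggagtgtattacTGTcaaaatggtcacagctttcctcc
Igkv14-126: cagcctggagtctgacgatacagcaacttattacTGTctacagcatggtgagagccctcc
Igkv4-91: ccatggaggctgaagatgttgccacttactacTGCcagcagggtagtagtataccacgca

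Cells with at least 1000 UMIs (unique molecules) and at most 10% mitochondrial UMIs were kept, 3278 to 6625 per library, with medians of 4462 to 6186 UMIs. B cells were those with at least 2 Cd79a UMIs and no Cd3e UMI (1332 to 4050 per library), and plasma cells those with at least 5 Jchain and 3 Xbp1 UMIs (19 to 65). A cell was called for the segment with the most UMIs if that segment had at least 3. The libraries fell into sets of 2 and 4. In ND replicate 2 and MCDHFD replicate 3 the deposited barcode lists were filtered and named Cell Ranger 7.2.0 in the header, whereas the other 4 lists were unfiltered and named 9.0.1. Between the 2 forms of list no more than 1 kept barcode was shared by any pair of libraries, and no pair of libraries of any form shared more than 18.

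Kappa V segments were read in very different amounts in these 2 sets of libraries. In B cells, Igkv UMIs numbered 8.97 per Igkc UMI in ND replicate 2 and 14.5 in MCDHFD replicate 3. The other libraries had 0.0208 and 0.0258 in ND replicates 1 and 3, and 0.0211 and 0.0207 in MCDHFD replicates 1 and 2. Thus V sequence outnumbered constant sequence in both libraries with filtered lists and was rare beside it in the other 4. The labels name 1 kit for the 3' end of transcripts for all 6, but reads of a 3' kit fall mostly outside the V sequence, and from the files it cannot be told whether both sets were made with it. The form of the list is used below as the name of a set of libraries that also differ in software version and may differ in kit, and comparisons of level between the sets are not comparisons of like measurements. T cell receptor beta V segments behaved alike in T cells, with 1.35 V UMIs per constant UMI in ND replicate 2 against 0.0204 in ND replicate 1. The share of B cells that could be called followed this split: it was 92.7% (1726 of 1862 cells, 95% Wilson interval 91.4 to 93.8%) in ND replicate 2 and 93.8% (1249 of 1332, 92.3 to 94.9%) in MCDHFD replicate 3. Elsewhere it was 4.84% (196 of 4050) in ND replicate 1, 5.79% (178 of 3075) in ND replicate 3, 3.34% (96 of 2871) in MCDHFD replicate 1 and 3.69% (106 of 2871) in MCDHFD replicate 2. Intervals here cover counting error only. Plasma cells were called in 86.1 to 96.2% of cells in all 6 libraries.

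T cells, which do not make kappa chains, gave a background for the calls. The parts of free RNA and of droplets with more than 1 cell in this background were not tested. None of 774 to 1418 T cells was called in any of the 4 libraries with unfiltered lists, which allows a share of up to 0.388% in the smallest of them. In ND replicate 2, 0.561% of T cells were called (4 of 713), and in MCDHFD replicate 3 it was 2.33% (30 of 1288). At least 1 Igkv UMI was seen in 11.1% and 20.6% of T cells of these 2 libraries, at a median of 5706 and 5707 UMIs per cell. B cells of the same libraries had at least 1 Igkv UMI in 96.9% and 97.1% of cells, at medians of 4625.5 and 3575.5 UMIs.

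The 2 sets of libraries also ranked the segments differently. Igkv1-117 was dominant in 5.45% of called B cells in ND replicate 2 and 5.36% in MCDHFD replicate 3, but in 18.9% and 25.8% in ND replicates 1 and 3 and 28.1% and 18.9% in MCDHFD replicates 1 and 2. Igkv1-110 went the same way, with 3.71% and 4.24% against 25.5%, 20.8%, 20.8% and 26.4%. Igkv10-96 was the reverse. It was dominant in 4.81% and 6.49% of called B cells of the 2 libraries with filtered lists and in none of the 576 called B cells of the other 4, which allows a share of up to 0.521%. Its UMIs were still seen in those 4, at 1.58 per 100 B cells against 140 with filtered lists. The lack of calls, which need 3 UMIs in a cell, is thus not an absence of Igkv10-96. Igkv6-20 and Igkv2-109 were also more frequent where lists were unfiltered, with means of 7.04% and 6.70% against 0.712% and 0.980%.

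The level per B cell differed unevenly between the sets. Among the 48 segments dominant in at least 20 B cells of the libraries with filtered lists, UMIs per 100 B cells were 5.79 to 521 times higher there than in the other 4 libraries, with a median of 71.8. The smallest ratios belonged to Igkv2-109 (27.2 against 4.69 UMIs per 100 B cells), Igkv6-20 (30.1 against 2.65), Igkv5-39 (17.3 against 1.44) and Igkv1-110 (149 against 9.36). The largest belonged to Igkv13-85 (85.0 against 0.163) and Igkv8-30 (142 against 0.358). These levels are sums, and single cells can weigh on them: 1 B cell of MCDHFD replicate 3 held 3712 UMIs of its top segment. Median UMIs in the cells called for Igkv13-85 were 16.5 in ND replicate 2 and 12.5 in MCDHFD replicate 3. For Igkv8-30 they were 13 and 14, so the largest ratios may not measure detection alone. Shares of called B cells in the 4 libraries with unfiltered lists carry the unevenness of detection, and the B cell repertoire is described below from the other 2.

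**Figure D1:**
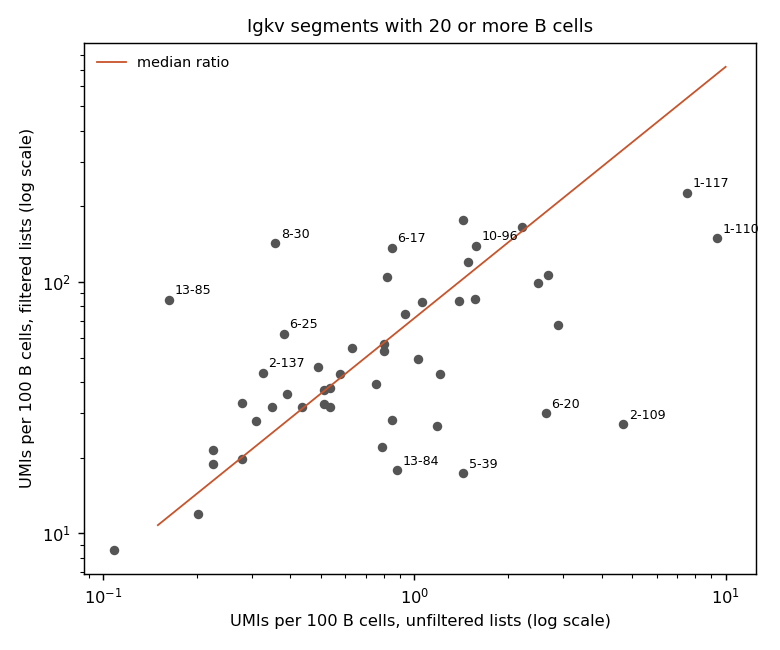
UMIs per 100 B cells of 48 Igkv segments in the libraries with unfiltered lists (x axis, log scale) and filtered lists (y axis, log scale), 1 point per segment, with the median ratio as a line. Igkv2-109, Igkv6-20, Igkv5-39 and Igkv1-110 lie furthest below the line, and Igkv13-85 and Igkv8-30 furthest above it.

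In ND replicate 2 and MCDHFD replicate 3, 96 segments were dominant in at least 1 of the 2975 called B cells. They were 92 of the 100 functional segments and 4 pseudogenes, and the pseudogenes accounted for 6 cells. Over all libraries, 134 segments had a UMI in a B cell, 87 had one in a plasma cell, and 25, all of them pseudogenes, had none in either. Usage was broad. Igkv10-96 (mean 5.65% of called cells), Igkv1-117 (5.41%), Igkv1-135 (4.68%) and Igkv1-110 (3.98%) were the most frequent. They were followed by Igkv6-17 (3.46%), Igkv6-23 (3.35%), Igkv6-15 (3.31%), Igkv12-46 (3.21%), Igkv17-127 (2.77%) and Igkv19-93 (2.68%). By the mean over all 6 libraries, Igkv6-20, Igkv2-109 and Igkv12-44 (2.55% and 2.56% in these 2 libraries, mean 3.44% in the other 4) also entered the leading 10, in place of Igkv10-96, Igkv6-17 and Igkv6-23. Igkv1-117 led in ND replicate 2 with 94 cells (5.45%, Wilson interval 4.47 to 6.62%), and Igkv10-96 led in MCDHFD replicate 3 with 81 cells (6.49%, 5.25 to 7.99%), intervals that overlap. Across the 160 segments the shares of these 2 libraries had a Pearson correlation of 0.935 and a Spearman correlation of 0.916. Segments are not independent replicates, and these values are a description.

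Frequent segments lay at both ends of the locus. Segments within 1 Mb of Igkj1 were dominant in 40.0% and 43.3% of called B cells of ND replicate 2 and MCDHFD replicate 3, those at 1 to 2 Mb in 19.4% and 16.5%, and those beyond 2 Mb in 40.7% and 40.2%. Functional segments numbered 40, 31 and 29 in these 3 stretches, so the middle one was used least for its size. Segments on the minus strand, which join by inversion, made up 53.6% and 52.6% of called cells, with 62 of the 100 functional segments. Plus-strand segments made up 46.4% and 47.4%, with the other 38. Family 4, the largest with 26 functional segments, was dominant in 12.2% and 10.4% of cells, while family 1, with 10 functional segments, was dominant in 15.6% and 15.1%. Family 6 (9 functional segments) had 14.1% and 15.4%.

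**Figure D2:**
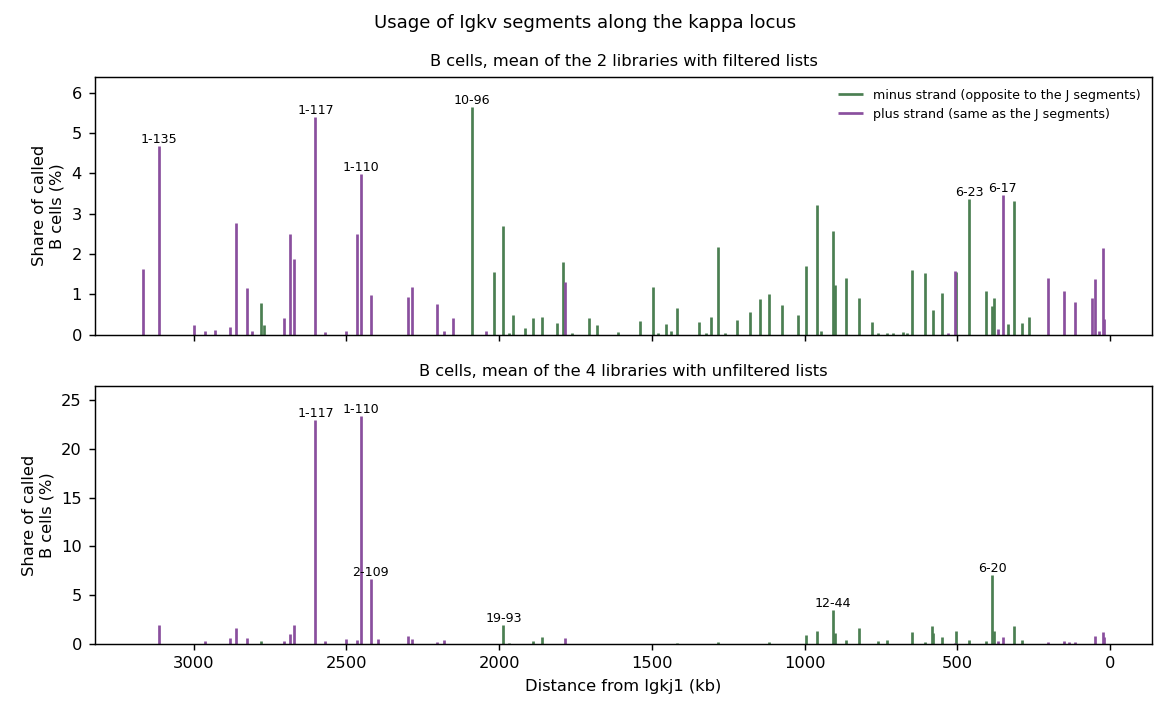
Share of called B cells (%) for each Igkv segment against its distance from Igkj1 (kb), as the mean of the 2 libraries with filtered lists (top) and of the 4 with unfiltered lists (bottom), with bars coloured by strand. The top panel spreads over both ends of the locus with no segment above 5.65%, whereas Igkv1-117 and Igkv1-110 exceed 20% in the bottom panel.

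The amount of V transcript in a called B cell also depended on the segment. For the 42 segments with at least 10 cells in each of these 2 libraries, the median UMIs of the dominant segment ranged from 13 to 44 in ND replicate 2 and from 7.5 to 39 in MCDHFD replicate 3. The order was much alike in both, with a correlation of 0.895 between the log2 medians over the 42 segments. Igkv1-117 (medians 43 and 36 UMIs), Igkv6-25 (41.5 and 36.5) and Igkv6-15 (42 and 36) were at the top. Igkv13-84 (13.5 and 7.5) and Igkv5-39 (13 and 9.5) were at the bottom. All 4 family 4 segments of this set, Igkv4-55, Igkv4-57, Igkv4-59 and Igkv4-72, were among the lowest 10. Igkv10-96 was frequent although its level was moderate (25 and 16). Since calling needed 3 UMIs, a segment with a low level is more easily missed.

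A single segment held nearly all Igkv UMIs of a called B cell, with a median of 97.4% in ND replicate 2 and 96.8% in MCDHFD replicate 3. A second segment with at least 3 UMIs was present in 30.8% (531 of 1726) and 28.7% (358 of 1249) of called cells. It reached 0.5 of the UMIs of the first or more in 11.9% and 11.4%. Both segments came from 1 family in 8.85% and 8.94% of such cells, close to the 9.08% and 9.40% found between the dominant segments of 2 different cells. The pair seen most often was Igkv3-4 with Igkv4-59 (72.9% identical), in 10 cells, all from MCDHFD replicate 3. A plasma cell of that library held 14224 Igkv3-4 UMIs. The part of free RNA and of droplets with more than 1 cell in these pairs was not tested. Igkv6-17 with Igkv9-129 was seen in 6 cells, also only in MCDHFD replicate 3. Igkv1-117 with Igkv1-135 (4 and 2 cells) and Igkv1-117 with Igkv4-59 (3 and 3 cells) were seen 6 times over ND replicate 2 and MCDHFD replicate 3, and Igkv1-135 with Igkv19-93 and Igkv1-135 with Igkv6-23 in 5 cells each, as were 3 further pairs.

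Lambda segments were read in the same B cells. A called kappa segment with fewer than 3 UMIs of any lambda segment was found in 83.7% of B cells of ND replicate 2 and 88.1% of MCDHFD replicate 3. Lambda alone was found in 5.10% and 3.83%, both in 9.02% and 5.71%, and neither in 2.20% and 2.40%. B cells with a tie for the top kappa segment, 14 and 9 in these libraries, were not called and count under lambda alone or neither. Kappa-only cells were thus 16.4 and 23.0 times as many as lambda-only cells. With 1 library per diet of this kind, the difference has no replicate check.

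The subset markers of the cells are given by segment as pooled shares, with no test among the 48 segments. Bhlhe41, a transcription factor needed for B-1 cells, had a UMI in 28.1% (9 of 32, Wilson interval 15.6 to 45.4%) of the B cells with dominant Igkv14-126 in the 2 libraries with filtered lists. The next segments of the 48 with at least 20 cells were Igkv6-20 (10.0%, 2 of 20), Igkv14-111 (9.09%, 7 of 77) and Igkv9-124 (8%, 2 of 25), and 14 segments had no such cell. Over all called B cells of these 2 libraries the shares were 3.94% and 2.16%. Fcer2a, the low-affinity IgE receptor CD23 of follicular B cells, went the other way: Igkv14-126 had the lowest share of the 48, 40.6% (13 of 32, 25.5 to 57.7%). Igkv3-10 had the highest, 80.0% (24 of 30, 62.7 to 90.5%).

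**Figure D3:**
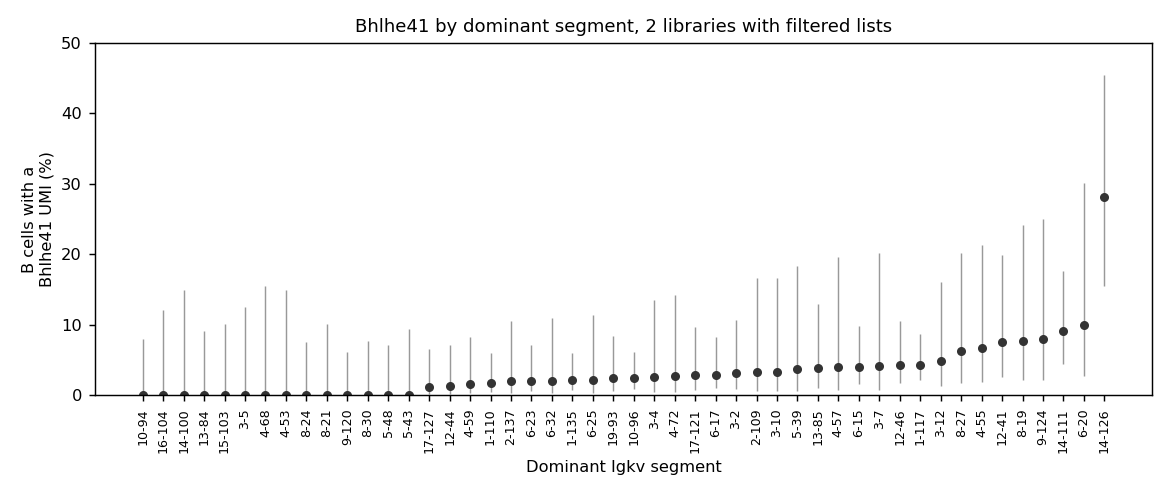
Share of B cells with a Bhlhe41 UMI (%) for each of the 48 dominant Igkv segments with at least 20 B cells in the 2 libraries with filtered lists, sorted, with 95% Wilson intervals. Igkv14-126, at 28.1%, stands above the next segment, at 10.0%, and their intervals overlap.

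Segment usage of B cells with Bhlhe41 and no Fcer2a UMI (82 called cells in 6 libraries) was compared with that of B cells with Fcer2a and no Bhlhe41 UMI (2111 called cells) within libraries. Igkv14-126 was dominant in 3 of 38 Bhlhe41 cells in ND replicate 2, in 5 of 17 in MCDHFD replicate 3, in 1 of 6 in ND replicate 3 and in 1 of 3 in MCDHFD replicate 2. In the Fcer2a cells it was dominant in 3 of 1114 in ND replicate 2, 9 of 682 in MCDHFD replicate 3, and none in the other 4. It was dominant in none of the 15 and 3 Bhlhe41 cells of ND replicate 1 and MCDHFD replicate 1. The log2 difference was 4.67 (SE 1.02) with an adjusted p of 0.000411 (edgeR quasi-likelihood with library as a block, Benjamini-Hochberg over 54 segments). Igkv14-111, which is 91.6% identical to Igkv14-126, was higher by 2.26 (SE 0.68) with an edgeR adjusted p of 0.0335. These 2 were the segments called of 54 tested, 3.7%. Igkv14-111 lost the call without either ND replicate 1 (adjusted p = 0.118), ND replicate 2 (0.863), MCDHFD replicate 2 (0.0741) or MCDHFD replicate 3 (0.0950). Igkv14-126 lost it without ND replicate 2 (adjusted p = 0.0568), and without MCDHFD replicate 3 it had under 10 cells and was not tested. After Igkv14-126 (10 cells), the segments most often dominant in Bhlhe41 cells were Igkv1-117 (8 cells), Igkv14-111 (7), Igkv1-110 (6) and Igkv12-46 (4). The next smallest p-values belonged to Igkv9-120, Igkv6-23 and Igkv17-121, none of which was dominant in a Bhlhe41 cell (edgeR adjusted p = 0.714 for each).

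Heavy chains were read in the same cells, and the known B-1 partner came with Igkv14-126. In ND replicate 2, 5 of the 6 B cells with dominant Ighv11-2 had Igkv14-126 (83.3%, Wilson interval 43.6 to 97.0%), against 7 of 1720 other called B cells (0.407%). In MCDHFD replicate 3 it was 8 of 8 (100%, 67.6 to 100%) against 12 of 1241 (0.967%). The remaining libraries had no called B cell with dominant Ighv11-2, but a plasma cell of MCDHFD replicate 1 carried both segments. The mean difference over the 2 libraries was 91.0 percentage points (SD 11.4, n = 2), and the exact sign-flip test cannot go below p = 0.5 with 2 libraries. For Ighv12-3, Igkv4-91 was dominant in 2 of 3 cells in ND replicate 2 and 1 of 3 in MCDHFD replicate 3, against 0.464% and 0.321% of other called cells, a mean difference of 49.6 points (exact p = 0.5). Ighv7-1 with Igkv7-33, the pair of the T15 antibodies to phosphorylcholine, was seen in none of 13 and none of 3 cells (Wilson upper bounds 22.8% and 56.1%).

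Outside the V segments, 3 genes had the largest ratio between B cells with dominant Igkv14-126 and other B cells in the 2 libraries with filtered lists. Agbl1 had 690 against 55.0 CPM (UMIs per 1000000) in ND replicate 2 and 206 against 0.946 CPM in MCDHFD replicate 3. Gzma and Ccl5, a granzyme and a chemokine of cytotoxic lymphocytes, had 1191 against 42.8 and 1218 against 60.1 CPM in ND replicate 2. In MCDHFD replicate 3 they had 0 against 0.567 and 8.94 against 19.1 CPM, so of these 3 only Agbl1 was higher in both. These are sums over 12 and 20 cells, with no test.

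In plasma cells, 193 cells were called and 55 segments were dominant, all but 1 of which were also dominant in a B cell. Igkv6-15 was dominant in 12 plasma cells (mean share 5.60% ± 5.98, SD, n = 6 libraries), Igkv5-39 in 11 (4.73% ± 4.30), and Igkv1-135, Igkv1-117 and Igkv10-96 in 9 each (5.19% ± 4.18, 4.92% ± 2.64 and 4.29% ± 6.47). Igkv1-110 (8 cells), Igkv16-104 (7), Igkv14-111 (5), Igkv17-121 (5) and Igkv8-24 (4) completed the 10 with the highest mean share. Igkv1-117 and Igkv1-135 were present in all 6 libraries. Igkv6-15 was dominant in 5 of 31 plasma cells of MCDHFD replicate 2 and in none of 18 and 30 in ND replicate 3 and MCDHFD replicate 1. Igkv10-96 led MCDHFD replicate 3 with 5 of 30, Igkv5-39 led ND replicate 1 with 5 of 59, and Igkv1-135 led MCDHFD replicate 1 with 4 of 30. No segment exceeded 2 cells in ND replicates 2 and 3. In plasma cells, unlike B cells, Igkv1-110 and Igkv1-117 did not stand out in the libraries with unfiltered lists, where their mean shares were 3.89% and 5.54%.

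**Figure D4:**
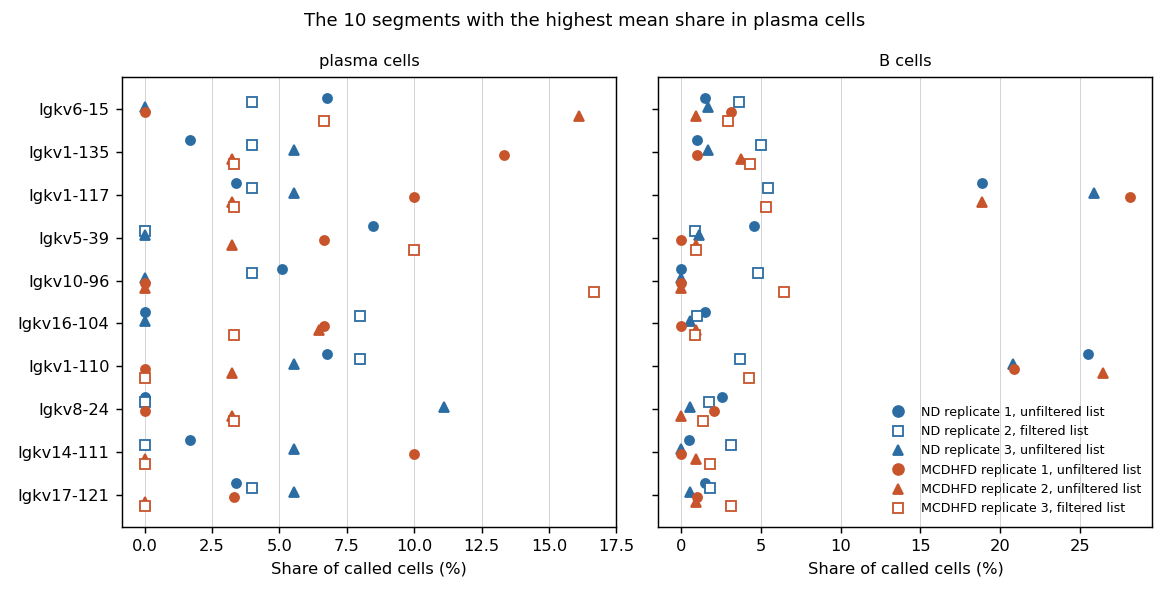
Share of called cells (%) in plasma cells (left) and B cells (right) for the 10 segments with the highest mean share in plasma cells, 1 point per library, coloured by diet, with open squares for the 2 libraries with filtered lists. The plasma shares of the 2 diets overlap except for Igkv1-110 and Igkv17-121, the latter with closest values of 3.39% (ND) and 3.33% (MCDHFD). In B cells Igkv1-117 and Igkv1-110 stand at 18.9 to 28.1% in the 4 libraries with unfiltered lists.

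Repeated light and heavy pairs, which could mark clones, were few. Of the 58, 24 and 18 plasma cells of ND replicates 1 to 3 with both chains called, 11, 2 and 4 shared their pair with another cell of the library. Of the 29, 30 and 30 cells of MCDHFD replicates 1 to 3, it was 6, 5 and 6. The largest groups held 3 cells, Igkv6-15 with Ighv1-53 in ND replicate 1 and Igkv6-15 with Ighv14-2 in MCDHFD replicate 2. Without the junction sequence, a shared pair does not show a shared clone.

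Comparing plasma with B cells within libraries, none of 67 segments with at least 10 cells passed an adjusted p of 0.05 (edgeR quasi-likelihood, 0% called), and 4 had an unadjusted p under 0.05. These were Igkv1-117 (log2 difference plasma minus B -1.75, SE 0.38, adjusted p = 0.165), Igkv4-70 (3.40, SE 0.62, 0.354), Igkv4-86 (3.85, SE 1.08, 0.354) and Igkv1-110 (-2.03, SE 0.73, 0.458), and Igkv4-91 came next (3.08, SE 1.23, 0.546). In the 4 libraries with unfiltered lists, Igkv1-110 (-2.43) and Igkv1-117 (-2.07) had lower shares in called plasma cells (edgeR adjusted p = 1.36e-06 and 2.4e-05), and in the other 2 libraries they differed by -0.13 and -0.57 (0.974 and 0.949). In these 4 libraries 3.34 to 5.79% of B cells were called, against 86.1 to 94.7% of plasma cells. The part of uneven detection in this difference was not tested. The 3 family 4 segments rest on few cells: Igkv4-70 on 2 plasma cells and 8 B cells, Igkv4-86 on 4 and 9, and Igkv4-91 on 4 and 15. As a family, segments numbered 4 were dominant in 9 of 25 plasma cells (36.0%) of ND replicate 2 but in 1 of 30 (3.33%) of MCDHFD replicate 3, against 12.2% and 10.4% of B cells.

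B cells without and with an Fcer2a UMI, compared in the same way, differed in none of 65 segments (edgeR adjusted p under 0.05, 0% called), and 1, Igkv6-14, had an unadjusted p under 0.05 (adjusted p = 0.442). All 10 B cells with dominant Igkv6-14 had Fcer2a. The other small p-values were those of Igkv1-122 (1.75, SE 0.97), Igkv6-15 (-0.68, SE 0.38), Igkv3-10 (-1.53, SE 0.88) and Igkv4-91 (1.60, SE 0.92), all with an edgeR adjusted p of 0.946.

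Between the diets, B cell usage showed no called change. None of 65 segments passed in edgeR with diet and list form as terms (0% called), 3 had an unadjusted p under 0.05, and no alternative fit called one. Igkv4-74 was dominant in 12 B cells of ND replicate 2 and in none elsewhere (edgeR adjusted p = 0.113). Igkv1-122 was dominant in 2 cells of ND replicate 2, 1 of MCDHFD replicate 1 and 9 of MCDHFD replicate 3 (log2 difference MCDHFD minus ND 2.59, SE 0.99, adjusted p = 0.302). Igkv3-10 was dominant in 10 cells of ND replicate 2, 1 of MCDHFD replicate 2 and 20 of MCDHFD replicate 3 (1.55, SE 0.66, 0.432). Igkv9-124 (-1.30, SE 0.71) and Igkv12-98 and Igkv4-80 (both 11 cells in ND replicate 2 and 2 in MCDHFD replicate 3; -1.84, SE 1.02) had adjusted p = 0.690. Within the pair of libraries with filtered lists, Igkv1-117 and Igkv1-110 differed by less than their counting intervals.

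Summed over B cells, a few segments were called by diet, but each call was lost in several alternative fits. Of 58 Igkv genes with enough UMIs, 2 were higher and 3 lower in MCDHFD (edgeR quasi-likelihood, diet and list form, adjusted p under 0.05 over 13473 genes), 5 of 58 against 4.35% of all genes called (1.58% higher and 2.77% lower). The median log2 difference of the 58 was -0.27, beside 0.00 for all genes, and 38 were below 0. In order of replicate, Igkv1-88 had 1.11, 64.3 and 1.21 CPM in ND against 0.521, 0.796 and 12.7 CPM in MCDHFD, lower by diet within each form of list (-1.84, SE 0.30, adjusted p = 0.0250). Igkv8-27 had 1.22, 85.6 and 1.49 against 0.937, 0.796 and 57.9 CPM (-0.63, SE 0.11, 0.0279). Igkv2-109 had 7.65, 55.9 and 8.58 against 5.47, 6.02 and 45.9 CPM (-0.47, SE 0.10, 0.0449). Over the 6 libraries the diets overlap in all of these, since the 2 libraries with filtered lists are higher than the other 4 in both diets. Igkv1-122 had 0.306, 13.1 and 0.289 against 0.729, 0.249 and 57.7 CPM (1.74, SE 0.35, edgeR adjusted p = 0.0390), and Igkv12-41 had 0.957, 75.6 and 0.675 against 1.04, 1.09 and 162 CPM (0.84, SE 0.18, 0.0440). Both were higher chiefly in MCDHFD replicate 3, where 9 and 23 cells carried them. All 5 calls were lost without ND replicate 1, without ND replicate 3 or without MCDHFD replicate 1 (counts of called Igkv genes 0, 1 and 2, none of them these 5), and without list form as a term. Without MCDHFD replicate 2, the count was 6, 2 of them among these 5.

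In the 4 libraries with unfiltered lists alone, 7 of 50 Igkv genes were lower in MCDHFD and none higher (edgeR adjusted p under 0.05), with 21.3% of 13491 genes called. Without either ND replicate 2 or MCDHFD replicate 3, 11 of 58 were lower and none higher, beside 20.1% and 20.4% of all genes called in these fits, and Igkv2-109 was the 1 shared with the 5 above. After thinning each B cell to 1000 UMIs, at least 1 Igkv UMI was expected in 11.7% and 12.7% of B cells of ND replicates 1 and 3 and in 8.92% and 8.76% of MCDHFD replicates 1 and 2. Barcodes with under 100 UMIs, which hold free RNA, had 166 and 135 Igkv CPM in these ND libraries and 55.3 and 56.5 in these MCDHFD libraries, and thinned T cells had an Igkv UMI in 0.350%, 0.360%, 0.246% and 0.266%. The part of free RNA in the B cell difference was not tested. The libraries with filtered lists had 92.6% (ND replicate 2) and 93.7% (MCDHFD replicate 3). In the other 4 the difference MCDHFD minus ND was -3.34 points, and both ND values were above both MCDHFD values (exact permutation p = 0.333, the smallest possible). Over all 6 the difference of -1.85 points (exact permutation p = 0.6) is dominated by the gap between the sets and does not inform on diet.

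Of 26 other genes of light chain biology, 21 had enough UMIs in B cells, and 7 fell in MCDHFD while none rose (edgeR adjusted p under 0.05, beside 2.77% of all genes lower). Their median log2 difference was -0.42, beside 0.00 for all genes. The lambda genes Iglc1 (-1.24, SE 0.09), Iglv1 (-1.21, SE 0.13), Iglv2 (-1.16, SE 0.21) and Iglc2 (-0.68, SE 0.11) were among them. Igkc itself fell by 0.42 (SE 0.09), from 5818, 687 and 5276 CPM in the ND libraries to 4262, 4482 and 518 CPM in the MCDHFD ones, in replicate order. Vpreb3, which acts in assembly of the B cell receptor and is high in immature B cells, fell by 0.56 (SE 0.09), and Cd79b, a signalling chain of the receptor, by 0.38 (SE 0.08). None of the 7 calls held with diet alone as a term. Iglc1 was the 1 call left without ND replicate 1, and Iglc1 and Iglv1 the 2 left without ND replicate 3, MCDHFD replicate 1 or MCDHFD replicate 2. Without either ND replicate 2 or MCDHFD replicate 3, 13 of 22 fell and none rose, beside 20.1% and 20.4% of all genes called. In the 4 libraries with unfiltered lists, 12 of 22 fell and 1 rose, beside 21.3% of all genes called. The summed level of 3 transitional B cell markers, 1 of which is Vpreb3, was 282, 302 and 243 CPM in ND and 171, 172 and 233 in MCDHFD. Marginal zone markers, summed over 5 genes, had 596, 588 and 692 CPM in ND and 1075, 956 and 592 in MCDHFD, higher in MCDHFD replicates 1 and 2 but not in MCDHFD replicate 3. Myeloid markers, summed over 5 genes, had 5240, 4595 and 449 CPM in ND B cells and 2149, 1145 and 1538 in MCDHFD B cells, which overlap. Their part in these results was not tested. Fewer cells of a type and less RNA per cell cannot be told apart in these sums.

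Plasma cell usage could be tested by diet for only 2 segments with at least 10 cells, Igkv5-39 (0.85, SE 1.56) and Igkv6-15 (0.86, SE 1.72), and neither passed (edgeR adjusted p = 0.635 for both, 0% called). Of the 55 segments, 3 had shares that did not overlap between the diets, Igkv1-110, Igkv4-86 and Igkv17-121, all higher in ND, on 8, 4 and 5 cells. For Igkv17-121 the closest values were 3.39% in ND replicate 1 and 3.33% in MCDHFD replicate 1. A full separation of 3 against 3 libraries has an exact permutation p of 0.1 at best. The 3 of 55 are thus not read as a difference by diet. In plasma cell UMI sums, Igkv2-137 was the single gene called of 25 Igkv genes, against 0.063% of 4764 genes (0.042% higher, 0.021% lower). It had no UMI in any ND library and 14, 37 and 8696 UMIs in MCDHFD replicates 1 to 3 (edgeR adjusted p = 0.0120). The last 2 libraries had 1 plasma cell each with dominant Igkv2-137, so the sum follows single cells. Igkv4-86, with 36, 6345 and 73 UMIs in ND and none in MCDHFD, had an adjusted p of 0.162. Igkv1-110 had 464, 15970 and 183 against 1, 9 and 1396 UMIs (0.232), Igkv2-109 had 4, 21 and 3 against 18, 36 and 4416 (0.557), and Igkv14-126 had 45, 2 and 0 against 68, 90 and 0 (0.722). DESeq2 called Igkv1-110 and Igkv4-86 lower and did not call Igkv2-137. The call of Igkv2-137 was lost without ND replicate 2, ND replicate 3, MCDHFD replicate 1 or MCDHFD replicate 3. Of the same 26 genes, 17 had enough UMIs in plasma cells and none passed in edgeR in either direction (5 with an unadjusted p under 0.05), while DESeq2 called Ighm higher and Iglv1 lower.

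Diversity was measured as the inverse Simpson number corrected for the number of cells, which rises as cells spread more evenly over more segments. With few cells it can exceed the number of segments seen. In plasma cells it was 40.7, 75.0 and 51.0 for the ND libraries and 25.6, 25.8 and 24.2 for the MCDHFD libraries, by replicate, so the diets did not overlap. The segments seen were 33, 21 and 15 in ND and 18, 20 and 20 in MCDHFD. Of these, 18, 17 and 12 in ND and 10, 13 and 15 in MCDHFD were in 1 cell each. Each value thus rests on few cells that share a segment and is imprecise. The difference of the means was -30.4 (55.6 ± 17.6 against 25.2 ± 0.90, SD, n = 3 each) with an exact permutation p of 0.1, the smallest that 3 against 3 allows. Drawn down to 18 plasma cells, the number of segments expected was 14.8, 16.0 and 15 in ND and 13.1, 13.6 and 13.6 in MCDHFD. Within the libraries with unfiltered lists the difference was -20.2 (exact p = 0.333, the smallest possible), and the largest ND value came from the 25 cells of ND replicate 2. In B cells the number was 43.3 in ND replicate 2 and 40.2 in MCDHFD replicate 3, and 8.75, 8.28, 7.86 and 8.15 in ND replicates 1 and 3 and MCDHFD replicates 1 and 2. Within the 4 libraries with unfiltered lists the difference by diet was -0.51 (exact permutation p = 0.333, the smallest possible). Over all 6 it was -1.35 (20.1 ± 20.1 against 18.7 ± 18.6, exact permutation p = 0.5), a comparison dominated by the gap between the sets, and it changed sign when some libraries were left out. Plasma cells were more diverse than B cells in 5 of 6 libraries, by 1.38 ± 1.20 (SD, n = 6) on the log2 scale (exact sign-flip p = 0.0625, smallest possible 0.0312). The gap was 2.05 in the 4 libraries with unfiltered lists and 0.03 in the other 2, where it was positive in ND and negative in MCDHFD. The low B cell values go with the high shares of Igkv1-110 and Igkv1-117 in libraries with unfiltered lists, given above.

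**Figure D5:**
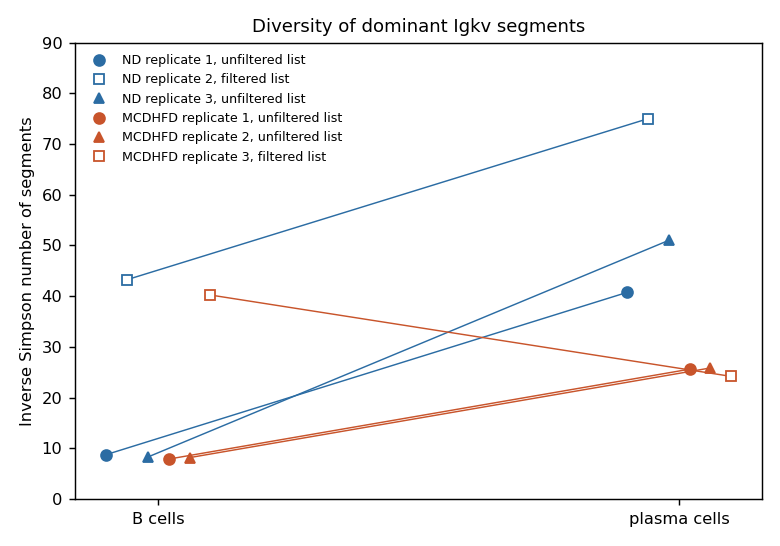
Inverse Simpson number of dominant Igkv segments in B cells and plasma cells, 1 line per library, coloured by diet, with open squares for the 2 libraries with filtered lists. Plasma values lie between 40.7 and 75.0 in ND and between 24.2 and 25.8 in MCDHFD. B cell values separate by form of list and overlap between the diets over all libraries, with ND slightly higher within each form.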

How the data were processed

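Single-cell matrices of 6 splenocyte libraries were analysed. The values are raw UMI counts per gene and barcode as deposited: the file headers declare integers, and every value was whole. The submitters' processing notes name Cell Ranger 9.1.0, Seurat 4.3.0 and mm10, while the file headers name Cell Ranger 9.0.1 or 7.2.0. Total counts per library were 21259837 to 62238012. The members and gene lists were chosen with earlier results of these data known.

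Plasma cells were classed before B cells, and ties for the top segment were not called. Cells per library and dominant segment were tested in edgeR 4.0.16 (R 4.3.3, quasi-likelihood), with called cells as offset and segments with at least 10 cells, by diet and form of barcode list, or by class with library as a block. UMI sums were tested over all genes after filterByExpr and TMM, with Benjamini-Hochberg adjustment at 0.05. DESeq2 1.42.0 was an alternative. Single values were compared by two-sided exact permutation over libraries. Counts of B cells were compared between libraries, and the least different pair of 1 diet, MCDHFD replicates 1 and 2, had a chi-square per gene of 5.63, so none was merged. No doublets were removed. Scrublet (scanpy 1.11.5), an alternative, marked 88, 0 and 52 cells in ND and 234, 206 and 0 in MCDHFD, and so had not worked in the libraries with filtered lists. Fits were tested on simulated counts. Segments with near-identical copies, such as Igkv6-29 and Igkv6-20 (98.5% identical), may share reads.

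Segments named are those called, or the 5 smallest p where fewer than 5 passed, the 10 most frequent per class, the leaders per library, the 5 most frequent in Bhlhe41 cells, the 6 most frequent pairs, and 3 known heavy and light pairs. The comparison by Fcer2a alone and the fits on the 2 libraries with filtered lists were added after the data were seen. Segments named at the ends of other rankings, and those leading the B cells of the libraries with filtered lists, were chosen after their values were seen.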

Additional observations from a re-analysis of the deposited data

Results flagged for a closer look

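Kappa segments also appeared in T cells, which enter no comparison: 2.33% of T cells of MCDHFD replicate 3 had a dominant Igkv segment, above the 0.561% of ND replicate 2 and the 0 of ND replicates 1 and 3. Only libraries with filtered lists gave such calls, 1 per diet, and the difference was not tested over replicates.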

How the results depend on the processing

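Leaving out 1 library at a time moved many results. Called Igkv genes ranged from 0 to 11 in B cell UMI sums (5 with all libraries) and from 0 to 5 in plasma cell sums (1), and called segments from 0 to 2 in Bhlhe41 against Fcer2a B cells (2) and from 0 to 2 in plasma against B cells (0). The B cell diversity difference ranged from -12.1 to 10.2, and the difference in B cells with an Igkv UMI from -30.1 to 24.9 points, as the balance of list forms shifted. Without the filter on low counts, 18 of 134 (B) and 45 of 87 (plasma) Igkv genes were called, beside 4.89% and 1.96% of all genes. Diet alone called 0 in both. With the replicate number as a replicate block the count was 0 in both. Deviations of same-numbered libraries had correlations of 0.640, -0.618 and -0.611. Replicates 2 and 3 each join a filtered with an unfiltered list, and every such mixed pair of libraries had a negative correlation. These values therefore cannot tell whether the numbers pair the samples. DESeq2 called 2 in plasma cells. The 4 libraries with unfiltered lists gave 3 in plasma cell sums, 2 in plasma against B cell usage and 0 in Bhlhe41 against Fcer2a. TMM gave 3 in plasma against B cell usage. Bhlhe41 against Fcer2a called 1 with 5 UMIs, with TMM, without a filter and in the 2 libraries with filtered lists. Plasma usage of Igkv5-39 (0.85) was -0.28 without ND replicate 2, a change of sign, and 0.45 without ND replicate 3, and reached 1.34 with the replicate block. Leaving out ND replicate 1 or any MCDHFD library left plasma usage by diet with under 2 testable segments, as did the 4 libraries alone. The cause of these changes was not tested beyond the counts of cells given. The count of 0 for B cell usage by diet held under every alternative run. For single segments, 325 alternative values kept direction and side of the threshold, 57 lost the call, 16 gained one and 1 changed sign, the Igkv5-39 value above. The 325 include segments not called at first that stayed uncalled, so they do not measure how calls held. In B cell sums, calls held in 5 of 12 alternatives (Igkv1-122), 6 of 13 (Igkv2-109), 5 of 13 (Igkv1-88) and 4 of 13 (Igkv12-41 and Igkv8-27 each). Calls of Igkv2-137 in plasma sums held in 5 of 13. In Bhlhe41 cells, Igkv14-126 held in 11 of 12 and Igkv14-111 in 5 of 13. The B cell calls in libraries with unfiltered lists rest on medians of 3 UMIs, and the plasma cell calls there on medians of 49 to 81.5.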
